A study of Homo sapiens with 4 samples.

Results

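The genes described here carry glucose carbon from its uptake to the citric acid cycle, together with the oxygen sensor that regulates many of them. The list held 46 genes in 5 roles, namely 4 glucose and lactate transporters, 19 glycolysis genes, 3 genes of the pentose phosphate pathway, 11 genes of pyruvate and the citric acid (TCA) cycle, and 9 hypoxia genes. A gene was taken as measured where its probes gave a value on at least 3 of 4 arrays. This held for 35 of the 46, among 7713 features measured in the same way (named genes and unnamed probes). No probe was named for SLC16A1, SLC16A3, PFKFB4, LDHB, TALDO1, FH or CA9, and these 7 were not analysed here. OGDH had a probe but no value. PKM, the pyruvate kinase of most tissues, had a single value (-0.75 on day 3). PFKL and ENO2 had values on days 3 and 4 only, at -0.21 and 0.29 for PFKL and -0.19 and -0.31 for ENO2. HK1, PFKP and TKT had no value on day 1, so 32 members had values on all 4 arrays.

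The cells were EJM, an established human line of multiple myeloma, the cancer of antibody-secreting plasma cells. All of them carried an IκBα super-repressor under the control of the tetracycline repressor. IκBα keeps NF-κB transcription factors out of the nucleus, and the super-repressor is a form that is not degraded on signalling. The 4 induced samples received doxycycline (20 µg/ml, 37 °C), for 1 day in the first and 2, 3 and 4 days in the others, and each was labelled with Cy5 and hybridised against uninduced EJM cells labelled with Cy3. The uninduced control carried the same construct and received no doxycycline, so any effect of doxycycline itself cannot be told apart from that of the super-repressor. The labels name no clone or separate cultures and no dye swap. There was 1 array per day, and every value below is a log2 ratio of induced over uninduced cells, where 0 means no difference and 1 means 2-fold higher. The direction was taken from the dyes and the base of the logarithm as 2, neither of which the values state.

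Glycolysis splits glucose into pyruvate in the cytosol and yields a little ATP. The pentose phosphate branch makes NADPH and ribose, and pyruvate dehydrogenase passes pyruvate as acetyl-CoA to the citric acid cycle in the mitochondrion. When oxygen is scarce, prolyl hydroxylases such as EGLN1 no longer mark HIF-1α for destruction, and it then activates genes for glucose uptake, glycolysis, lactate production and blood vessel growth. Plasma cells and myeloma cells use much glucose, in part to build the sugar chains of antibodies.

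The arrays had values for 10321 to 13872 of 15246 probes. The SD of the log2 ratio over probes was 0.517 on day 1 and 0.569 on day 2, against 0.345 on day 3 and 0.380 on day 4. Days 3 and 4 resembled each other most (Pearson r = 0.57 over probes, which are not independent), and days 1 and 4 least (r = 0.020). NFKBIA, the gene of IκBα, read -0.22, -0.067, -0.095 and -0.18 on days 1 to 4, and no source used here says whether its probes detect the transgene. The NF-κB target TNFAIP3 was below 0 on all 4 arrays, from -1.07 on day 1 to -1.70 on day 4. Log ratios give no level, so the plasma cell identity of the line could not be checked by its markers. All 9 plasma cell markers on the list were measured. Of markers of other cell types, 8 of 10 T cell and 5 of 10 myeloid genes were measured. So were 3 of 7 red cell and 4 of 8 stromal and endothelial genes. HBB alone passed the test, at 0.85 on average (limma adjusted p = 0.038). The other measured red cell genes, HBA1 and HBG1, averaged -0.14 and 0.098.

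The median log2 ratio of the members was highest on day 1 and lowest on day 4, though no single member passed the tests below. On day 1, 26 of 32 measured members were higher in induced than in uninduced cells, with a median of 0.28, while 44.1% of all features lay above 0 on that array. On day 4, 8 of 35 members were above 0, with a median of -0.15, while 51.5% of all features were. Between these, 21 of 35 lay above 0 on day 2 (median 0.11; 41.6% of all features) and 12 of 35 on day 3 (median -0.086; 52.9%). The median difference of day 4 from day 1 was -0.48 over the members and 0.038 over all features. In bulk samples, fewer cells of a kind and less RNA per cell cannot be told apart.

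**Figure D1:**
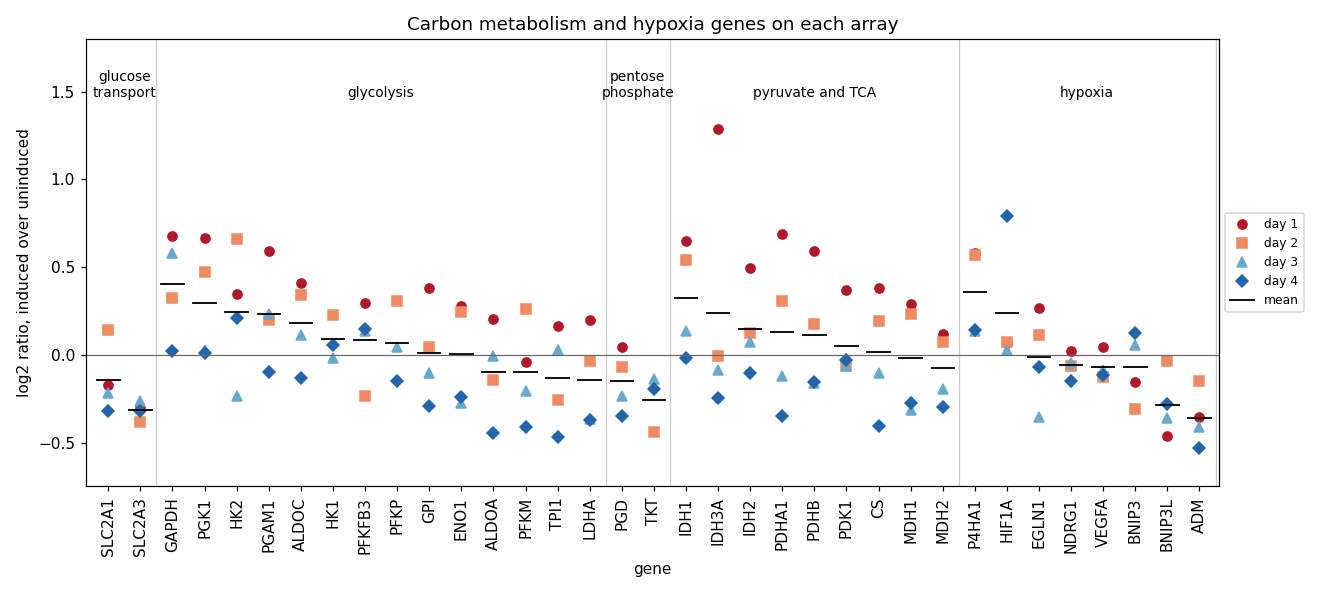
Each measured gene on the x axis, grouped by role, with its log2 ratio of induced over uninduced cells on the y axis for each array (points, 1 per day) and the mean over the arrays (black line). In the pyruvate and TCA group every day 1 point lies above 0 and every day 4 point below 0, and HIF1A has a single high point on day 4.

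The day trend was tested with limma as the change of the log2 ratio per day (the slope), over 6427 features with 4 values and with Benjamini-Hochberg adjustment. No member passed at an adjusted p of 0.05 (0 of 32, smallest limma adjusted p = 0.304), and no feature of the whole table did, a background of 0%. At an unadjusted p under 0.05, 7 members had slopes below 0 and 0 had slopes above it, against a background of 5.73% of features below 0 and 9.26% above. These were PDHA1, CS, IDH3A, IDH1, PDHB, PGK1 and GPI. In all, 28 of 32 members had slopes below 0, against 45.8% of features, and the median slope was -0.17 log2 per day against 0.019. The count of 7 was 0 without the day 1 array, 12 without day 2, 1 without day 3 and 1 without day 4, where 3 arrays leave 1 residual degree of freedom per gene. The slopes themselves moved less. Without 1 array they ranged from -0.40 to -0.33 for PDHA1, -0.30 to -0.24 for CS, -0.28 to -0.23 for IDH1, -0.32 to -0.22 for PGK1 and -0.24 to -0.17 for GPI, with wider ranges of -0.38 to -0.165 for PDHB and -0.69 to -0.12 for IDH3A. The count was 4 when each gene was read from the probe with the fewest missing values. For these alternative counts no share of all features is given, so they have no background. The number of slopes below 0 was 28 to 30, of 32 to 35 members with a slope, in every alternative tried, with 29 of 32 when arrays were scaled to the same SD and 30 of 32 when they were centred on their median (52.1% of features). The plasma cell markers ran the same way, since 8 of 9 had slopes below 0 and their medians were 0.58, 0.70, 0.24 and 0.096 on days 1 to 4. Their part in the result was not tested.

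**Figure D2:**
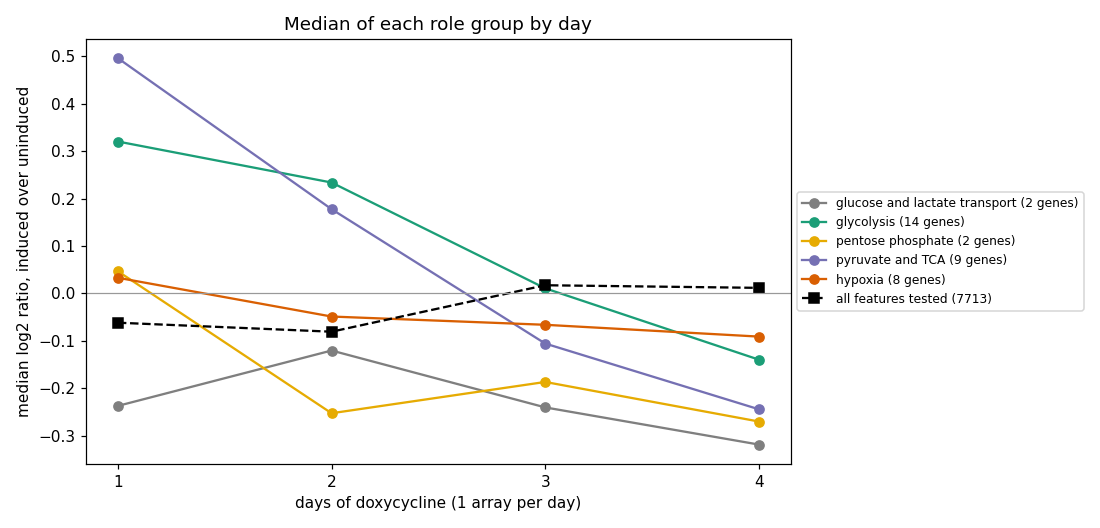
The median log2 ratio of induced over uninduced cells (y axis) on each day (x axis) for the 5 role groups and for all features tested (dashed). Pyruvate and TCA genes go from 0.50 to -0.24 and glycolysis genes from 0.32 to -0.14, while all features stay between -0.081 and 0.017.

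The mean over the 4 days was tested against 0 with limma over the 7713 features. Of the 35 members, 0 passed (smallest limma adjusted p = 0.302), against a background of 0.337% of features. At an unadjusted p under 0.05 there were 4 members, against 12.5% of features. ADM and SLC2A3 had means below 0 (6% of features in this direction), and GAPDH and P4HA1 above 0 (6.47%). Over all members 19 means lay above 0 and 16 below (43.9% of all features lay above 0), from -0.36 (ADM) to 0.40 (GAPDH), with a median of 0.0080 against -0.032 for all features. Because the early and late days lay on opposite sides of 0 for many members, a mean near 0 did not stand for 4 values near 0. ADM was the only member called under any alternative, with limma array weights (-0.42; limma adjusted p = 0.0499) and with days 3 and 4 alone (-0.47; limma adjusted p = 0.0467). Its adjusted p ran up to 0.54 over the alternatives. Over all features, 291 were called with array weights and 569 with days 3 and 4 alone, against 26 in the main setting.

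The promoters of 5 members are shown because these members were among those with the largest statistics, on the mean (ADM, GAPDH, P4HA1) or on the slope (PDHA1, CS). Each line gives the 250 bases before the RefSeq start of the gene (GRCh38.p14), 5′ to 3′ on the strand of the gene, and so lies upstream of that transcript. The windows are chr11:10304823-10305072, plus strand for ADM, chr12:6535014-6535263, plus strand for GAPDH and chr10:73096867-73097116, minus strand for P4HA1. They are chrX:19343677-19343926, plus strand for PDHA1 and chr12:56300331-56300580, minus strand for CS. Capitals mark matches on either strand to ACGTG or GCGTG, the core letters of the hypoxia response element bound by HIF, or to the κB consensus bound by NF-κB.
ADM: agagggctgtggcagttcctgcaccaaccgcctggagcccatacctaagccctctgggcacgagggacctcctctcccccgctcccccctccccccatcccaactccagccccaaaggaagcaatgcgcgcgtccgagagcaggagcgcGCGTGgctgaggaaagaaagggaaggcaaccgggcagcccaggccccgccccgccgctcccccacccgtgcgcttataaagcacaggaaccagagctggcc
GAPDH: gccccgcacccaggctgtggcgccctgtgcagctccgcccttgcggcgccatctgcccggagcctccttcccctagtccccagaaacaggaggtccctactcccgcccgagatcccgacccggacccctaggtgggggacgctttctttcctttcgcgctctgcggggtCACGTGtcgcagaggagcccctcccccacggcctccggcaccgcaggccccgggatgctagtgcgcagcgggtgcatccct
P4HA1: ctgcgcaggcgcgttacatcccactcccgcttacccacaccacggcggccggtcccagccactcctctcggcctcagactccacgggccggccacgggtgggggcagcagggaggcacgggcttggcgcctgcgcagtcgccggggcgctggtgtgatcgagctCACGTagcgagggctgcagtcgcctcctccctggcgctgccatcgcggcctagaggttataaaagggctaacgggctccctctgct
PDHA1: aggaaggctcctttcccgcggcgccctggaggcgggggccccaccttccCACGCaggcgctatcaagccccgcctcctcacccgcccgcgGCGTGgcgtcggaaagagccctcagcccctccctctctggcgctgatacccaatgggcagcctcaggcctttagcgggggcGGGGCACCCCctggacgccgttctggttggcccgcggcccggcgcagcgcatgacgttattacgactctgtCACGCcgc
CS: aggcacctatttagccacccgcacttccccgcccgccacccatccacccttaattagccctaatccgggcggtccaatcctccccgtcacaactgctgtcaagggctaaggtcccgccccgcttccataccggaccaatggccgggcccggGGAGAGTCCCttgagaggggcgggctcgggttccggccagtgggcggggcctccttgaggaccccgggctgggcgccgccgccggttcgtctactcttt
ADM held 1 match to GCGTG, P4HA1 1 to ACGTG, PDHA1 3 to GCGTG and 1 to the κB consensus, and CS 1 to the κB consensus. GAPDH held CACGTG, which reads the same on both strands and counts as 2 overlapping matches to ACGTG. RefSeq windows were found for 31 of the 35 measured members, with 56 windows since several genes have more than 1 start, some of them overlapping. ACGTG occurred in 21 of these 56 windows (37.5%) and in 18.5% of all 35116 windows of the same length in the table. GCGTG occurred in 33.9% and 32.2%, and the κB consensus in 16.1% and 9.96%. A match is only a run of letters, and none of these shares was tested.

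Among the transporters, the glucose carrier SLC2A3 (GLUT3, the high-affinity carrier) was the steadiest member. Its log2 ratios were -0.30, -0.38, -0.26 and -0.32 on days 1 to 4. All 4 arrays were thus below 0 and within 0.12 of each other, a pattern seen in sign for 13.4% of all features. This narrow range is that of the probe average. Probe 28200_1 read -0.36, -0.34, -0.10 and -0.49, and probe 28212_1 -0.25, -0.43, -0.31 and -0.34. Probe 16589_1 had values on days 3 and 4 only (-0.38 and -0.12). Both complete probes had slopes below 0, while the slope of the average was 0.0070. The mean was -0.32 ± 0.051 (SD, 4 arrays; limma adjusted p = 0.32), or 1.25-fold lower. SLC2A1 (GLUT1, the basal glucose carrier) averaged -0.14, with only day 2 above 0. The lactate exporters of the SLC16A family were not analysed here.

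In the glycolysis group 14 of 19 genes were measured and all 12 with 4 values had slopes below 0. The group median was 0.32, 0.23, 0.010 and -0.14 on days 1 to 4. GAPDH, the step that first makes NADH, had the highest mean of all members, with ratios of 0.68, 0.33, 0.58 and 0.022. Day 4 alone was near 0, and the other days were above it. Probe 26597_1 had all 4 values (0.77, 0.69, 0.58 and 0.022), and probe 24201_1 gave values on days 1 and 2 only (0.59 and -0.042). The mean of GAPDH was 0.40 ± 0.29 (SD, 4 arrays; limma adjusted p = 0.34), or 1.32-fold higher.

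PGK1, the first ATP-yielding step, read 0.67, 0.47, 0.026 and 0.0125 on days 1 to 4. The first 2 days stood apart from the last 2, and the slope was -0.24 ± 0.056 log2 per day (SE, 4 arrays; limma adjusted p = 0.32). Only probe 37574_1 of PGK1 had all 4 values, at 0.67, 0.47, -0.17 and -0.29, and probe 37762_1, with values on days 3 and 4 only, raised those days. GPI, which converts glucose phosphate to fructose phosphate, read 0.38, 0.046, -0.10 and -0.29. It was lower on each successive day, with a slope of -0.22 ± 0.028 and the same adjusted p as PGK1.

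The other glycolysis genes had 4-array means from -0.14 to 0.25. HK2, the inducible hexokinase that traps glucose in the cell, averaged 0.25, and HK1, the constitutive hexokinase, 0.088 over 3 arrays. The phosphofructokinases, which set the committed step, averaged -0.10 for PFKM and 0.066 for PFKP, and PFKFB3, which makes their activator, averaged 0.085. ALDOC and ALDOA, the aldolases, averaged 0.18 and -0.097, and TPI1, which interconverts the triose phosphates, -0.13. PGAM1 (phosphoglycerate mutase) averaged 0.23, ENO1 (enolase) 0.0020 and LDHA, which reduces pyruvate to lactate, -0.14. None of these means passed the limma test. PGAM1 had the most probes, 7 in all. Each of the 6 PGAM1 probes with 4 values had a slope below 0.

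Of the pentose phosphate genes, PGD, which makes NADPH, averaged -0.15 over 4 arrays. TKT, the transketolase that returns pentoses to glycolysis, had no day 1 value and averaged -0.26 over 3 arrays, all below 0. Neither passed (limma adjusted p = 0.62 for PGD and 0.51 for TKT), and with 2 measured genes the branch gives no group pattern.

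The genes of pyruvate entry and the citric acid cycle differed most between the first and the last day among the 5 roles. Their median difference of day 4 from day 1 was -0.67, against -0.60 for glycolysis and -0.16 for the hypoxia genes. The lead over glycolysis depended on the probes. With only the probes that had all 4 values, the pyruvate and TCA median was 0.38 on day 1 and -0.19 on day 4. That of glycolysis was then 0.36 and -0.26. As probe averages, all 9 measured genes were above 0 on day 1 and all 9 were below 0 on day 4, and all 9 slopes were below 0. Single probes departed from this. On day 1, probe 38149_1 of MDH2 read -0.26 and probe 25944_1 of IDH3A -0.15. On day 4, probe 37087_1 of PDHA1 read 0.019 and probe 38044_1 of MDH2 0.026. The median ran from 0.50 on day 1 through 0.18 and -0.11 to -0.24 on day 4. In 8 of these 9 genes both early arrays lay above both late arrays, against 22.4% of all features. PDK1 was the exception, with a high day 1 value alone. For 6 of the 9 the ratio was lower on each successive day, against 9.27% of features.

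PDHA1, the α subunit of the pyruvate dehydrogenase that feeds acetyl-CoA into the cycle, read 0.69, 0.31, -0.12 and -0.35 on days 1 to 4. Day 1 corresponds to 1.61-fold higher in induced cells and day 4 to 1.27-fold lower. Its slope of -0.35 ± 0.029 log2 per day (SE, 4 arrays; limma adjusted p = 0.304) had the largest statistic of any member. The probes of PDHA1 differed in depth, since probe 36139_1 ran from 0.82 to -0.59 and probe 37087_1 from 0.56 to 0.019. Its partner PDHB, the β subunit, read 0.59, 0.18, -0.16 and -0.15. Both late arrays lay below both early ones, with a slope of -0.26 ± 0.070.

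CS, citrate synthase and the entry step of the cycle, read 0.38, 0.19, -0.11 and -0.41 on days 1 to 4. It was lower on each successive day, and the slope was -0.27 ± 0.019 log2 per day (SE, 4 arrays; limma adjusted p = 0.307). IDH1, the cytosolic isocitrate dehydrogenase that makes NADPH, read 0.65, 0.54, 0.14 and -0.0205. It stayed above 0 until day 3, its mean was 0.33 ± 0.32 (SD, 4 arrays), and its slope was -0.24 ± 0.039.

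IDH3A, the catalytic subunit of the NAD-linked isocitrate dehydrogenase, had the widest range of any member, at 1.29, -0.0085, -0.086 and -0.24 on days 1 to 4. It was the only member at least 2-fold from 1 on any array, which 3.74%, 5.5%, 0.876% and 1.25% of features were on days 1 to 4. The day 1 value came from 1 of 3 probes. Probe 31681_1 read 3.80 on day 1, and probes 25944_1 and 36554_1 read -0.15 and 0.21. With probes 25944_1 and 36554_1 alone, which had all 4 values, the mean of IDH3A was -0.040, in place of 0.24, and the slope -0.059. The slope of -0.47 ± 0.20 log2 per day (SE, 4 arrays) therefore rests on that probe.

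The remaining genes of this role averaged -0.075 (MDH2, mitochondrial malate dehydrogenase) to 0.15 (IDH2, the mitochondrial NADP-linked isocitrate dehydrogenase). MDH1, the cytosolic malate dehydrogenase, averaged -0.017, and PDK1, the kinase that switches pyruvate dehydrogenase off and a known HIF target, averaged 0.052. Their slopes did not pass at an unadjusted p of 0.05.

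**Figure D3:**
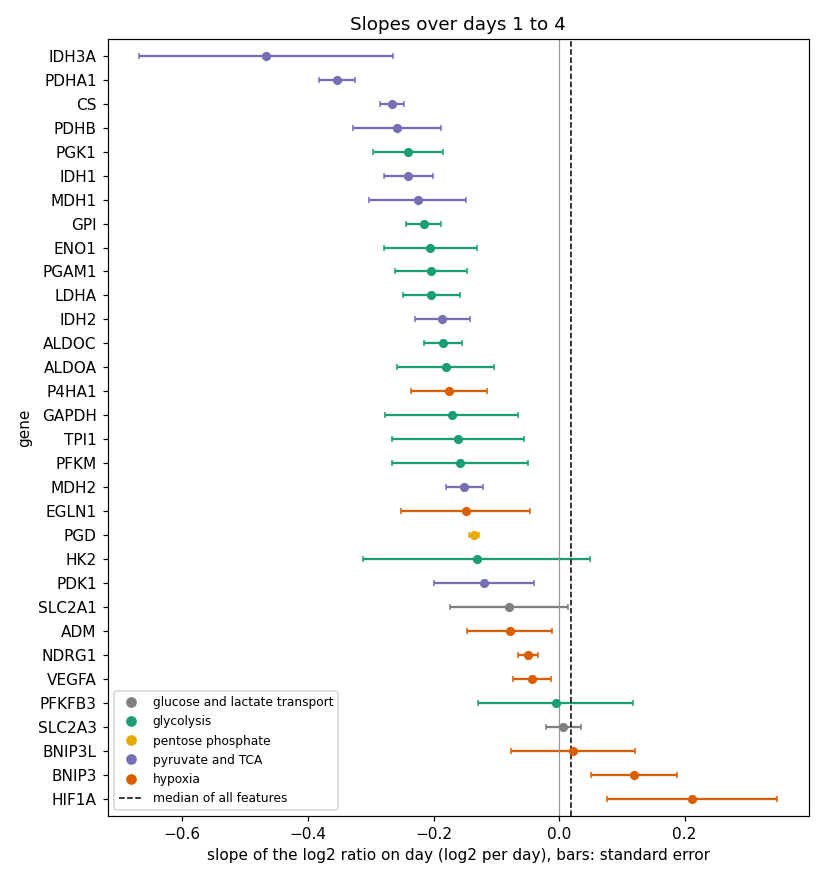
Change of the log2 ratio per day for the 32 genes with 4 values (x axis, log2 per day; points with standard error), ordered by slope and coloured by role, with the median of all features (0.019) as a dashed line. The 9 pyruvate and TCA genes and the 12 glycolysis genes lie below 0, and SLC2A3, BNIP3L, BNIP3 and HIF1A lie above it.

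The hypoxia genes showed no common direction over the days. Of the 8 measured, 5 had slopes below 0 and 3 above, and the median was 0.033, -0.049, -0.066 and -0.091 on days 1 to 4. These medians depended on the probes and on centring. With the probe missing the fewest values they were 0.21, 0.017 and -0.27 on days 1 to 3, with complete probes 0.14 and 0.017 on days 1 and 2, and with centred arrays 0.096 and 0.032 on those days. ADM, the vasodilator peptide adrenomedullin and a HIF target, read -0.36, -0.15, -0.41 and -0.53 on days 1 to 4. All 4 arrays of its single probe were below 0, and the mean was -0.36 ± 0.16 (SD, 4 arrays; limma adjusted p = 0.302), or 1.28-fold lower. P4HA1, a collagen prolyl hydroxylase and another HIF target, went the other way, at 0.58, 0.57, 0.14 and 0.14. Its early arrays stood above its late ones, and the mean was 0.36 ± 0.25 (SD, 4 arrays; limma adjusted p = 0.36), or 1.28-fold higher.

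HIF1A, which encodes the oxygen-regulated subunit, is singled out after its values were seen, since its day 4 value stood apart. It read 0.070, 0.071, 0.026 and 0.79 on days 1 to 4, with a mean of 0.24 ± 0.37 (SD, 4 arrays; limma adjusted p = 0.57). The day 4 value was carried by 2 of its 4 probes. Probes 16766_1 and 27275_1 read 2.09 and 1.18 on day 4, while probes 24995_1 and 33901_1 read 0.080 and -0.18. EGLN1, the prolyl hydroxylase that marks HIF-1α, averaged -0.010. VEGFA, the vascular growth factor, averaged -0.070 and NDRG1, a stress-induced HIF target, -0.060. The mitophagy receptors BNIP3L and BNIP3 averaged -0.28 and -0.071, all 4 arrays of BNIP3L being below 0. BNIP3 was the single member whose late arrays both lay above its early ones, a pattern held by 32.1% of features. Its day 2 value came from probe 27482_1 alone, which read 0.134, -0.31, 0.125 and 0.0010 and did not show the pattern. The other BNIP3 probes, without a day 2 value, each read lower on day 1 than on days 3 and 4.

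**Figure D4:**
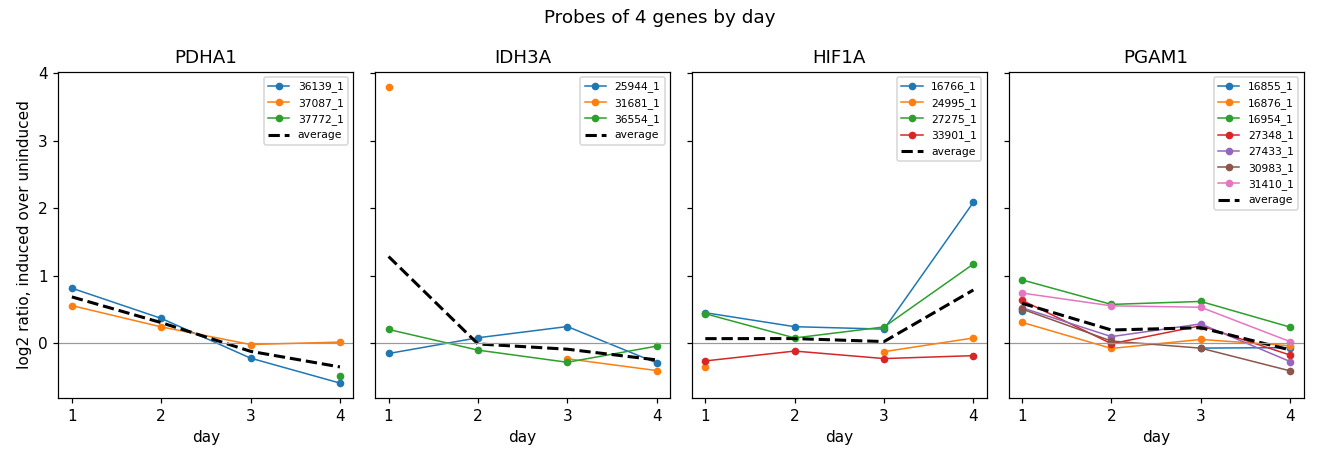
Log2 ratio of induced over uninduced cells (y axis) by day (x axis) for each probe of PDHA1, IDH3A, HIF1A and PGAM1 (coloured lines), with the average used for the gene (black dashed). A single IDH3A probe at 3.80 on day 1 and the HIF1A probes at 2.09 and 1.18 on day 4 stand away from the other probes of their gene.

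Where a gene had at least 2 probes with all 4 values, their slopes had the same sign, while their means could differ in sign. Probes with fewer values were not compared in this way, and some ran otherwise. For PFKFB3, probe 35777_1 read -0.18, 0.097 and 0.072 on days 1, 3 and 4. Probe 36792_1 of that gene read 0.76, 0.175 and 0.23 on those days. The measured members had 82 probes, 8 of the members having a single one. There were 16 members with at least 2 probes present on all 4 arrays. In 0 of the 16 did slopes of both signs occur, and in 15 every slope was below 0, HIF1A being the exception with each slope above 0. In 6 of the 16 the means of the probes had both signs. Over all members 50 of 55 complete probes had a slope below 0. GAPDH, ENO1, PGAM1, LDHA and others have close copies and processed pseudogenes in the genome, so their probes may read more than 1 transcript.

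Other genes of the same pathways, 97 in all and none of them a member, had slopes of both signs. Of the 38 with all 4 values, 20 had slopes below 0 and 18 above, with a median slope of -0.010. None passed on the slope or the mean (limma, smallest adjusted p = 0.304 and 0.23), while 6 slopes below 0 and 1 above had an unadjusted p under 0.05. The contrast with the members was not tested. The 4 further genes listed under glycolysis were HK3, PGAM2, ENO3 and FBP1, the last an enzyme of glucose synthesis that opposes glycolysis. Their slopes were 0.091, 0.035, 0.012 and 0.16 (median 0.063), each smaller than its standard error. All 4 were above 0, opposite in sign to the 12 of 12 below 0 among the glycolysis members. Of those members, HK2 (-0.13 ± 0.18) and PFKFB3 (-0.0056 ± 0.12) also had slopes smaller than their standard errors. The 14 further pyruvate and TCA genes had 9 slopes below 0, and the 17 further hypoxia genes had 8.

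Named by the size of their statistic on the slope, the chemokine receptor CXCR4, the collagen lysyl hydroxylase PLOD1 and BSG, the chaperone of the lactate exporters, had slopes of -0.31, -0.29 and -0.32 log2 per day. DLD, the lipoamide dehydrogenase shared by pyruvate dehydrogenase and the cycle, had the steepest slope in the other direction at 0.31, unlike PDHA1 and PDHB of the same complex. The pyruvate dehydrogenase kinase PDK3 and the VEGF receptor FLT1 came next by the statistic, not by the slope itself, with slopes of 0.19 and 0.16. DLD itself read -0.56, -0.61, -0.045 and 0.31 on days 1 to 4 from 1 probe, so its early arrays lay below its late ones. On the mean, CXCR4 (-0.65), CCNG2 (-0.26) and CITED2 (-0.31) were the lowest by that measure and PLOD1 (0.52), the demethylase KDM3A (0.27) and the muscle enolase ENO3 (0.23) the highest. CXCR4 was called with limma array weights (-0.80, limma adjusted p = 0.018) and with days 3 and 4 alone (-0.92, limma adjusted p = 0.0093). Those settings called 291 and 569 features in all. Over all 4 arrays CXCR4 was not called (limma adjusted p = 0.23).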

How the data were processed

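Gene expression of EJM cells was measured on 4 two-colour spotted arrays, each made from 50 µg of total RNA per dye per the labels' protocols. The deposited values are log2 ratios of the channels for 15246 probes, with array medians between -0.068 and 0.004. The sources used here do not give the log base, ratio direction, background correction, normalization or spot filter. Base 2 was taken because base 10 would put the largest ratio (7.26) beyond a 16-bit scanner. The natural log was not excluded. No intensities were used, so depth was not assessed, and the number of arrays limits the precision.

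Of the probes, 10169 had 1 gene symbol, 4 had several and 5073 were unnamed. Current symbols were looked up by Entrez identifier in RefSeq (GRCh38.p14, 10128 probes matched), which served for names and the promoter windows. Probes were averaged per gene and array, giving 9681 features, so the probes behind a gene can differ between days. limma 3.58.1 in R 4.3.3 (lmFit, eBayes, two-sided) tested the mean against 0 (value on at least 3 arrays, 7713 features) and the slope on day (6427 features), with Benjamini-Hochberg adjustment at 0.05. On simulated independent noise of the arrays' own SD, limma called 200 of 200 features given a mean of 2 and 200 of 200 given a slope of 1.5 per day (log2), with 0 and 2 unchanged features called among 7713 and 6427. Changes as small as those of the members were not simulated. The arrays are different days, and separate cultures are not named in the labels, so p-values measure only the spread between arrays. If the control was 1 preparation, its own spread is left out.

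The members and lists were chosen with earlier results of these data known. Daily values are given for members with an unadjusted p under 0.05, a range of at least 1 or an absolute mean of at least 0.3, and other members by their mean. Of the further pathway genes, the 3 with the largest statistic in each direction are named. Alternatives covered scaling, centring, the probe rule, array weights, the missing-value filter, named genes only, pairs of days, and leaving out each array.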

Additional observations from a re-analysis of the deposited data

Results flagged for a closer look

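Among 42 genes named in the text with 4 values, 3 had 1 array far from the other 3 by Dixon's gap test at 95%, where chance gives about 1 in 20. HIF1A stood apart on day 4 at 0.79, IDH3A on day 1 at 1.29 and PDK1 on day 1 at 0.37. The HIF1A and IDH3A values were set by 2 of 4 probes and by 1 of 3 probes, as described above, and PDK1 had a single probe.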

How the results depend on the processing

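The number of members called on the slope was 0 under every alternative tried with limma, as was the number of features. On the mean it was 0 except with array weights and with days 3 and 4 alone (1 each, ADM), and it was 0 without any single array. The 26 features called on the mean became 3 with arrays scaled to the same SD, 291 with array weights, 42 with a value on all 4 arrays, 10 with named genes only, 1 with days 1 and 2 alone, 569 with days 3 and 4 alone, and 3 to 5 without 1 array. Members with an unadjusted p under 0.05 on the mean went from 4 to 9 with days 3 and 4 alone and 2 to 3 without 1 array. Those with such a slope below 0 went from 7 to 12 with arrays centred on their median, 15 with array weights, 4 with the probe missing the fewest values, and 0 to 12 without 1 array. The shares of all features at an unadjusted p under 0.05 are not given for these alternatives. Whether the members' counts differ from that background was not tested. The median of the pentose phosphate genes went from -0.20 to -0.010 with days 1 and 2 alone. There TKT, with no day 1 value, dropped out, and the later figure is PGD by itself. Among the daily medians of the 5 roles, those of glycolysis and of pyruvate and TCA did not move by more than their spread. Those of the hypoxia genes on days 1 to 3 did, as given above. Those of the transporters went from -0.12, -0.24 and -0.32 to 0.0275, -0.12 and -0.41 on days 2 to 4 with the probe missing the fewest values. That of the pentose phosphate genes on day 2 went from -0.25 to -0.067 in 5 alternatives. In these TKT again dropped out, so -0.067 is the value of PGD alone and not a shift of either gene. No named slope changed sign, and 8 of 130 alternative slopes, in 5 of 13 genes, moved by over 1.5 times. Without day 1, PDHB went from -0.26 to -0.165, IDH3A from -0.47 to -0.12 and PDK3 from 0.19 to 0.061. With complete probes BSG went from -0.32 to -0.155 and FLT1 from 0.16 to 0.27. Named means moved by over 1.5 times without changing sign in 150 of 515 alternative values. Among them HK2 went from 0.25 to 0.11 without day 2 and 0.41 without day 3, CITED2 from -0.31 to -0.51 without day 1 and -0.16 without day 2, and HIF1A from 0.24 to 0.056 without day 4 and 0.75 with the probe missing the fewest values.

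Means that changed sign, in 20 members with means between -0.14 and 0.25, none of them called, were as follows. With days 3 and 4 alone they were HK2 -0.0125, GPI -0.20, PFKP -0.053, ALDOC -0.010, ENO1 -0.26, PDHA1 -0.23, PDHB -0.16, PDK1 -0.047, CS -0.26, IDH2 -0.017, IDH3A -0.17 and BNIP3 0.090. With days 1 and 2 alone they were PFKM 0.11, ALDOA 0.0305, LDHA 0.0805, MDH1 0.26, MDH2 0.096 and EGLN1 0.19. With array weights they were GPI -0.11, PFKP -7.7e-05, ENO1 -0.18, PDHA1 -0.0996, PDHB -0.078, PDK1 -0.022, CS -0.14, IDH3A -0.032 and BNIP3 0.034. With scaled arrays they were GPI -0.030, ENO1 -0.055 and CS -0.036, and with centred arrays MDH1 0.017 and EGLN1 0.024. With the probe missing the fewest values they were TPI1 0.029, IDH3A -0.027 and VEGFA 0.11, and with complete probes IDH3A -0.040 and VEGFA 0.065.
Leaving out 1 array gave ranges of -0.11 to 0.11 for GPI, -0.089 to 0.094 for ENO1, -0.11 to 0.16 for CS, -0.12 to 0.082 for MDH1, -0.10 to 0.105 for EGLN1, -0.11 to 0.40 for IDH3A, -0.053 to 0.29 for PDHA1, -0.046 to 0.21 for PDHB, -0.053 to 0.091 for PDK1, -0.14 to 0.0092 for BNIP3, -0.22 to 0.0033 for PFKM and -0.20 to 0.019 for ALDOA. The cause of these changes was not tested beyond the days and probes named. No paired analysis was possible because the 4 arrays form 1 group with 1 array per day. No alternative on dim spots was tried, since no intensities were used.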
